A study of Drosophila melanogaster with 4 samples.

Results

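The genes described here license DNA for replication. They are the MCM genes Mcm2, Mcm3, dpa, Mcm5, Mcm6 and Mcm7, the origin recognition genes Orc1, Orc2 and Orc5, and the loading gene dup, 10 in all. A gene was followed through every probe whose only gene symbol in GEO's platform annotation was that of the gene. This gave 9 probes, 1 for each gene but Mcm7, which was not analysed here. All 9 had a value on each of the 4 arrays and so passed the only filter used, among 12847 probes that did so of 15744 listed.

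The arrays compared RNA from 2 kinds of Drosophila melanogaster larvae, to look for mRNAs that dASF/SF2 may target in the developing eye. One kind was GMR X GFP-dASF/SF2, in which the GMR driver makes GFP joined to the SR protein dASF/SF2 in the developing eye. The other was the control, GMR X GFP-NLS, in which the same driver makes GFP with a nuclear localisation signal. Both were third-instar larvae, and each extract pooled the front ends of 600 animals, from which polyA RNA was recovered by precipitation with an antibody against GFP. The tagged protein is made where the driver is active, while the extract also holds the other tissues of that end of the larva, and nothing in the labels says that either kind lacks its own dASF/SF2.

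Before a cell enters S phase, the origin recognition complex (ORC), an ATPase of several subunits, marks the sites where copying will start. Cdc6 and Cdt1 (the fly gene of Cdt1 is dup, double parked) then load rings of MCM proteins onto the DNA there. The ring holds 1 copy of each of 6 related ATPases, Mcm2 to Mcm7, of which dpa (disc proliferation abnormal) encodes Mcm4, and it is later switched on as the helicase that opens the fork. In the eye disc these genes are known from the cells that divide ahead of the morphogenetic furrow and from the second mitotic wave behind it. They are also known from the endocycles of polyploid larval tissues.

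On each array a dASF/SF2 precipitate was hybridised beside a GFP-NLS precipitate. On 2 arrays the dASF/SF2 RNA carried Cy5 and the GFP-NLS RNA Cy3 (called ASF-Cy5 arrays here), and on the other 2 the dyes were exchanged (ASF-Cy3 arrays). Arrays were paired by replicate number, giving 2 replicates: the series' design text names the pair of replicate 1 as dye swaps, and that of replicate 2 shares only its number. Every SD and p over the 2 replicates rests on this pairing, although the deviations of same-numbered arrays from their orientation means correlated at -0.339 across probes. Whether these came from separate collections of larvae is not said, so p-values rest on a spread that may be technical only. The values are the authors' log ratios of the channels, and neither the base of the logarithm nor the numerator is stated, so no fold changes are given. A "turned" value has its sign reversed on the ASF-Cy3 arrays. If the deposited ratio is Cy5 over Cy3, a negative turned mean stands for less RNA in the dASF/SF2 precipitate than in the GFP-NLS one, relative to the median probe. If it is Cy3 over Cy5, it stands for more. If it is already a ratio of samples, the mean without turning holds the comparison and the turned mean holds a dye effect. Both means are given for each licensing gene, and neither is assigned a direction between the precipitates. For the other replication genes and the markers, the means of single genes are turned ones, which may hold only a dye effect. In such precipitates from bulk extracts, fewer cells of a type, less RNA per cell and a smaller share of the RNA brought down with the tagged protein cannot be told apart.

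The arrays did not settle the reading. Across 12847 probes, which are not independent, the deposited values of the 2 orientations correlated with different signs. Those of replicate 1 had a Pearson correlation of 0.236 and a Spearman correlation of 0.191, and those of replicate 2 had -0.054 and -0.467. Between numbers, the ASF-Cy5 array of replicate 1 and the ASF-Cy3 array of replicate 2 had -0.219 and -0.311, and the other such pair -0.0686 and -0.120. The arrays of 1 orientation correlated above 0, with Spearman values of 0.502 for ASF-Cy5 and 0.309 for ASF-Cy3. The deposited values had standard deviations from 0.247 to 0.342, the highest on the ASF-Cy3 array of replicate 2, which also held 811 exact zeros against at most 35 on any other. SF2, the gene of the transgene, had deposited values of -0.082 and -0.232 on the ASF-Cy5 arrays, and 0.230 and 0.339 on the ASF-Cy3 arrays. Its turned mean was -0.23 ± 0.09 (SD, n = 2), and with 1 value per gene its adjusted p by limma was 0.127. Not turned, its mean was 0.0565. Only ratios were used, so the level of no gene, eye marker or licensing gene alike, could be checked.

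Of the licensing genes, Mcm2, Mcm3 and dup had negative deposited values on both ASF-Cy5 arrays and positive ones on both ASF-Cy3 arrays, and lay together on the negative side after turning, at -0.35, -0.19 and -0.26. The genes dpa, Mcm5 and Mcm6 kept a positive deposited sign, and Orc2 a negative one, whichever dye the dASF/SF2 RNA carried. Mcm6 lay close to 0 on 3 arrays, and Orc1 and Orc5 differed between replicates. With the 2 replicates, no licensing gene passed the threshold of 0.05 on limma's adjusted p over all 12847 probes, turned or not, and neither did any other probe (0% called under each reading, with smallest adjusted p-values of 0.117 turned and 0.752 not turned).

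**Figure D1:**
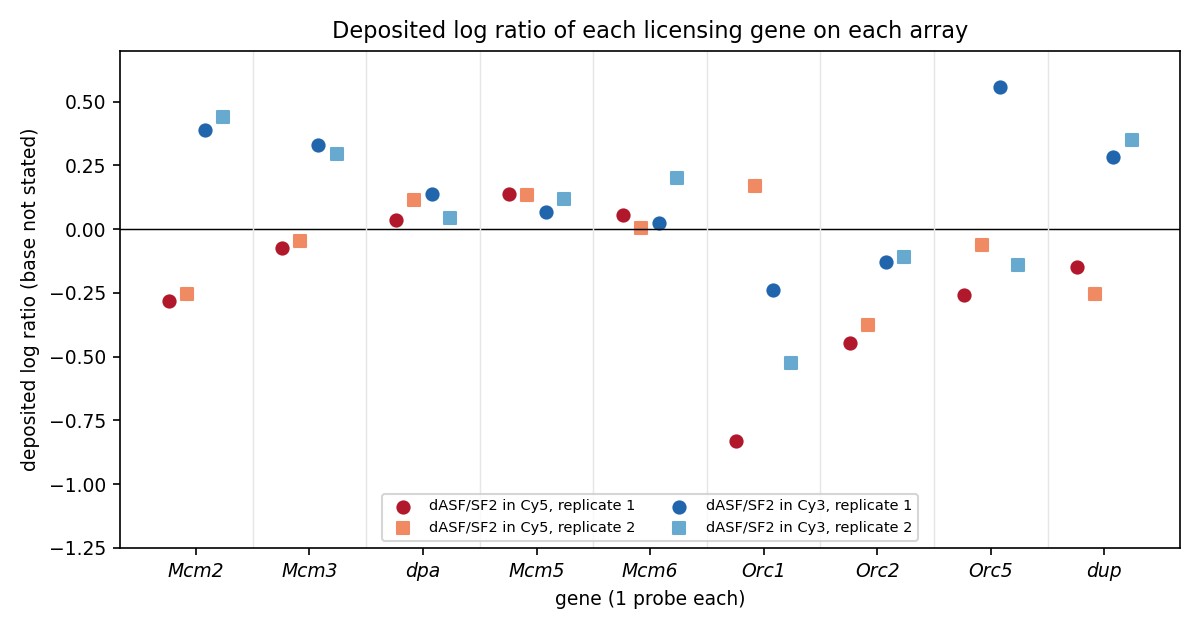
Deposited log ratio (vertical axis, base of the logarithm not stated) of the 9 licensing genes (horizontal axis) on the 4 arrays, red for dASF/SF2 in Cy5 and blue for dASF/SF2 in Cy3, circles for replicate 1 and squares for replicate 2. Mcm2, Mcm3 and dup have red points below 0 and blue points above 0, Orc2 has all 4 below 0, and Orc1 reaches from -0.831 to 0.171.

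Mcm2 encodes the subunit at the gate through which the ring opens, with a tail that also holds histones. Its probe had deposited values of -0.281 and -0.254 on the ASF-Cy5 arrays (replicates 1 and 2), and 0.390 and 0.440 on the ASF-Cy3 arrays. The arrays of the 2 orientations did not overlap, and within an orientation the replicates lay within 0.05 of each other. The turned mean was -0.35 ± 0.01 (SD, n = 2), with a 95% interval from -0.51 to -0.18, an unadjusted p of 0.00216 and adjusted p = 0.117 by limma. Counted from the most negative turned mean among the 12847 probes, it was number 353. Blocked on the replicate number, limma gave adjusted p = 0.0328, in a fit that called 8.71% of all probes and took 4 arrays with an estimated correlation of -0.408 within a block. The spread of 0.011 between replicates compares with a median of 0.077 over all probes, and it depends on the pairing. With the numbers crossed between orientations, a pairing tried after seeing the data, the spread was 0.028, against a median of 0.085, and the unadjusted p was 0.00603 with adjusted p = 0.225 by limma. Not turned, the mean of Mcm2 was 0.067 ± 0.028, with adjusted p = 0.838 by limma. That mean was 0.24 without either ASF-Cy5 array, and -0.10 and -0.11 without the ASF-Cy3 arrays of replicates 1 and 2.

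Mcm3, another ring subunit, had deposited values of -0.072 and -0.045 on the ASF-Cy5 arrays, and 0.331 and 0.294 on the ASF-Cy3 arrays. The sign again followed the dyes on all 4 arrays, but the size did not: the values on the ASF-Cy3 arrays were the larger. Its turned mean was -0.19 ± 0.02 (SD, n = 2), with a 95% interval from -0.35 to -0.025, an unadjusted p of 0.0305 and adjusted p = 0.183 by limma. Not turned, the mean was 0.12 ± 0.002, with adjusted p = 0.755 by limma. That mean was 0.22 and 0.21 without the ASF-Cy5 arrays of replicates 1 and 2, and 0.018 and 0.032 without the ASF-Cy3 arrays. Its turned mean lay beside that of Orc5, with dup between it and Mcm2.

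The remaining ring genes had turned means close to 0. The gene dpa had 0.038 and 0.116 on the ASF-Cy5 arrays, and 0.139 and 0.042 on the ASF-Cy3 arrays. All 4 values were positive and the orientations overlapped, so turning left a mean of -0.011 ± 0.059 (SD, n = 2). Not turned, the mean was 0.077 ± 0.006.

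Mcm5, which neighbours Mcm2 at the gate of the ring, had 0.138 and 0.134 on the ASF-Cy5 arrays, and 0.066 and 0.117 on the ASF-Cy3 arrays. These were the most even values of any licensing gene, positive on every array. The turned mean was 0.018 ± 0.023 and the mean without turning 0.11 ± 0.02 (SD, n = 2), with adjusted p-values of 0.893 and 0.769 by limma.

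Mcm6 had 0.055 and 0.005 on the ASF-Cy5 arrays, and 0.025 and 0.200 on the ASF-Cy3 arrays. Only the last of these stood clear of 0. Its turned mean was -0.0455 ± 0.0827, and its mean without turning 0.064 ± 0.045 (SD, n = 2). For dpa, Mcm5 and Mcm6 the 95% intervals of the turned means together spanned -0.22 to 0.18. Each interval included 0, so with 2 replicates neither a mean of 0 nor a small difference of either sign could be set aside.

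The gene dup encodes the fly Cdt1, which brings the MCM ring to ORC and is destroyed once S phase begins. Its deposited values were -0.147 and -0.253 on the ASF-Cy5 arrays, and 0.284 and 0.348 on the ASF-Cy3 arrays. As with Mcm2, the orientations lay on opposite sides of 0 with no overlap. Its turned mean was -0.26 ± 0.06 (SD, n = 2), with a 95% interval from -0.43 to -0.092, an unadjusted p of 0.00934 and adjusted p = 0.127 by limma. Blocked on the replicate number, limma gave adjusted p = 0.0357, and Mcm2 and dup were the 2 licensing genes called there. Not turned, it was at 0.051 ± 0.014, with adjusted p = 0.873 by limma, and at 0.16 and 0.20 without the ASF-Cy5 arrays of replicates 1 and 2, and -0.058 and -0.10 without the ASF-Cy3 arrays. Among the licensing genes dup had the second most negative turned mean, after Mcm2.

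The ORC genes did not share a pattern across the arrays. Orc2, a core subunit, had deposited values of -0.448 and -0.376 on the ASF-Cy5 arrays, and -0.128 and -0.110 on the ASF-Cy3 arrays. All 4 arrays were negative, and the ASF-Cy5 arrays were the lower. The mean without turning was -0.27 ± 0.03 (SD, n = 2), with a 95% interval from -0.46 to -0.082, an unadjusted p of 0.0151 and adjusted p = 0.752 by limma. Turned, it was -0.15 ± 0.02, with an unadjusted p of 0.0662 and adjusted p = 0.245 by limma. The turned value was -0.0028 and -0.026 without the ASF-Cy5 arrays of replicates 1 and 2, and -0.30 and -0.28 without the ASF-Cy3 arrays.

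Orc1, an ATPase subunit of ORC, had the most scattered values. They were -0.831 and 0.171 on the ASF-Cy5 arrays, and -0.238 and -0.525 on the ASF-Cy3 arrays. The replicates disagreed within each orientation, most of all on the ASF-Cy5 arrays, where the sign changed. The turned mean was 0.022 ± 0.453 (SD, n = 2), a spread far wider than the mean. Not turned, the mean was -0.36 ± 0.25, with an unadjusted p of 0.0238 and adjusted p = 0.752 by limma. In limma's fit on the 4 arrays with a dye term, the unadjusted p for not turning was 0.0708. That mean was -0.21 and -0.53 without the ASF-Cy5 arrays of replicates 1 and 2, and -0.51 and -0.19 without the ASF-Cy3 arrays. In the RefSeq gene order Orc1 and dpa lie on the same chromosome arm with 6 genes between them, and all 4 deposited values of dpa were positive where 3 of the 4 of Orc1 were negative.

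Orc5, an ORC subunit with an ATP-binding fold, had -0.257 and -0.062 on the ASF-Cy5 arrays, and 0.558 and -0.139 on the ASF-Cy3 arrays. The ASF-Cy3 array of replicate 1 stood apart from the other 3. Its turned mean was -0.19 ± 0.31 and its mean without turning 0.018 ± 0.176 (SD, n = 2), with adjusted p-values of 0.367 and 0.970 by limma. The turned mean was -0.26 and -0.14 without the ASF-Cy5 arrays, and -0.12 and -0.24 without the ASF-Cy3 arrays, of replicates 1 and 2 in each case.

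**Figure D2:**
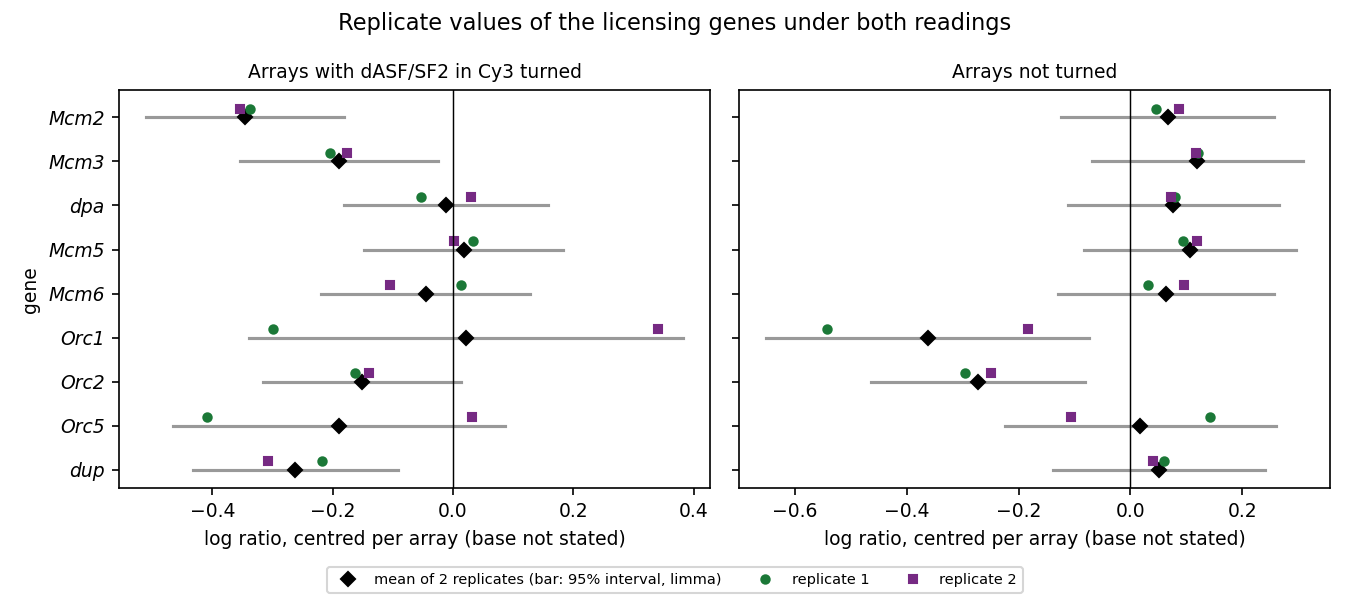
Centred log ratios (horizontal axis, base not stated) of the 9 licensing genes (vertical axis), with the ASF-Cy3 arrays turned (left) and not turned (right); green circles and purple squares are replicates 1 and 2, black diamonds their mean, and grey bars limma's 95% interval. On the left the bars of Mcm2, Mcm3 and dup lie below 0, and on the right those of Orc1 and Orc2 do; Orc1 and Orc5 have replicates on both sides of 0 on the left.

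Of the group as a whole, 7 of the 9 licensing genes had negative turned means and 2 positive ones, with a median of -0.15, where 48.7% of all probes were negative and their median was 0.0043. By limma, p was under 0.05 before adjustment for 3 licensing genes on the negative side (Mcm2, Mcm3 and dup), where 13.6% of all probes had one, and for 0 on the positive side, where 9.57% did. The same 3 were negative on all 4 turned arrays, a pattern of 16.1% of all probes, and 0 were positive on all 4, a pattern of 12.1%. The median of the 5 ring genes was -0.0455, and 0.0025 without the ASF-Cy3 array of replicate 2. That of the 3 ORC genes was -0.15, and -0.0028 and -0.026 without the ASF-Cy5 arrays of replicates 1 and 2. By replicate the median of the 9 was -0.20 and -0.10 (replicates 1 and 2). Without the ASF-Cy5 array of replicate 1 it was -0.0615. The members were listed with earlier results of these data known, so these counts describe them and test nothing.

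Without turning, 7 licensing genes were positive and 2 negative, with a median of 0.064, where 46.8% of all probes were negative and their median was 0.0085. The median was 0.10 and 0.11 without the ASF-Cy5 arrays of replicates 1 and 2, and -0.058 and 0.012 without the ASF-Cy3 arrays. All 5 ring genes were positive, from 0.064 to 0.12, but single arrays moved them. Mcm2 became negative without either ASF-Cy3 array, and Mcm3 ran from 0.018 to 0.22 and Mcm6 from 0.012 to 0.12 over the arrays left out, against 0.0502 to 0.103 for dpa and 0.0895 to 0.12 for Mcm5. By limma, p was under 0.05 before adjustment for 2 licensing genes on the negative side (Orc1 and Orc2), against 3.44% of all probes, and for 0 on the positive side, against 2.13%. Once centred, dpa and Mcm5 were positive on all 4 arrays, as were 7.15% of all probes, and Orc2 was negative on all 4, as were 6.45%.

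**Figure D3:**
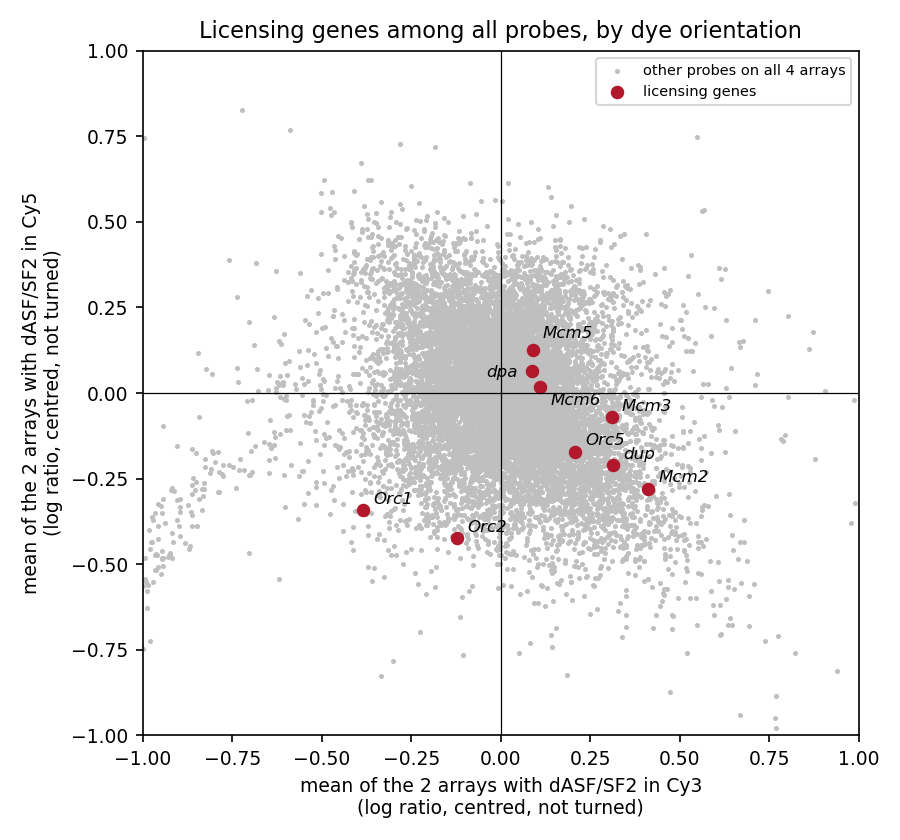
Mean centred log ratio of each probe on the 2 ASF-Cy5 arrays (vertical axis) and on the 2 ASF-Cy3 arrays (horizontal axis), not turned and with the base not stated; red points are the 9 licensing genes, grey points the other probes measured on all 4 arrays, of which 110 fall outside the range drawn. Mcm2, Mcm3, dup and Orc5 lie at the lower right, where the sign of these means follows the dyes. The genes dpa, Mcm5 and Mcm6 lie at the upper right, and Orc1 and Orc2 at the lower left, where it does not change. On single arrays the centred values of Orc5, Orc1 and Mcm6 did not all keep these signs.

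Likeness to Mcm2 was measured as the Euclidean distance over the 4 centred arrays, with 1 value per gene, among 10352 other genes whose median distance was 0.776. Nearest were CG8001 at 0.0835, the cuticle gene Lcp65Ac at 0.0855 and BicD, which encodes an adaptor of dynein in mRNA and organelle transport, at 0.0871. Lcp65Ac, for example, had -0.333 and -0.188 on the ASF-Cy5 arrays, and 0.377 and 0.431 on the ASF-Cy3 arrays. Of the licensing genes dup was the closest to Mcm2, at 0.194 and number 66 in that order, followed by Mcm3 at 0.335 and number 503. The remaining 6 lay between 0.609 (Mcm6) and 1.34 (Orc1).

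The other replication genes, listed for their roles, lay on both sides. With 1 value per gene, 54 of the 74 listed were measured, 29 with positive and 25 with negative turned means. Their median was 0.017, against 0.0010 for all genes. That median was -0.013 and -0.017 without the ASF-Cy3 arrays of replicates 1 and 2. Not turned, it was 0.013, and by role it ran from -0.081 (polymerases and primase) to 0.10 (chromatin assembly and cohesion). The first of these became 0.014 without the ASF-Cy5 array of replicate 1. By limma, p was under 0.05 before adjustment for 12 on the negative side and 12 on the positive side, where 15% and 9.16% of all 10353 genes had one. Adjusted over all genes none of the 54 passed 0.05 in limma's moderated test, and 3 of all genes did (0.029%). The replication genes given below had adjusted p-values from 0.0521 to 0.931 by limma. On this scale Mcm2 had adjusted p = 0.0689 and dup 0.0904 by limma.

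Closest in role to the licensing genes were the remaining loading and ORC genes. Of those listed, Orc3, Orc6 and geminin had no single-symbol probe with a value on all 4 arrays. Cdc6, which encodes the other loader, had deposited values of -0.114 and -0.276 on the ASF-Cy5 arrays, and 0.496 and 0.086 on the ASF-Cy3 arrays. Like dup it was negative on all 4 turned arrays, with a turned mean of -0.25 ± 0.08 (SD, n = 2) and adjusted p = 0.104 by limma. Orc4, another ORC subunit, had 0.270 and 0.208 on the ASF-Cy5 arrays, and -0.389 and -0.208 on the ASF-Cy3 arrays. It was positive on all 4 turned arrays, opposite to Mcm2, with a turned mean of 0.26 ± 0.09 and adjusted p = 0.0946 by limma. The MCM relative rec, known from meiotic recombination, was at -0.014 ± 0.165.

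Genes that turn the loaded ring into a working helicase had a median of 0.11 over 11 measured, 7 positive and 4 negative. Without 1 array the median lay between 0.0325 and 0.128. By limma, p was under 0.05 before adjustment for 5 positive and 1 negative member, where 9.16% and 15% of all genes had one. Not turned, the median was -0.017, with 4 positive and 7 negative. Psf2 and Psf1, subunits of the GINS complex that joins the ring, had turned means of 0.30 ± 0.28 and 0.29 ± 0.30, and both varied about as much as their size. Ctf4, which links the helicase to DNA polymerase alpha, had 0.26 ± 0.14, and mus101, the fly TopBP1, had 0.19 ± 0.12 (SD, n = 2).

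Genes of the replication fork went both ways, and the medians near 0 given next changed sign when single arrays were left out, except that of the clamp list. Among 11 clamp, clamp loader and single-strand binding genes the median was -0.044, with Gnf1, the large clamp loader subunit, at -0.30 ± 0.11, elg1 and cutlet, of related loaders, at -0.24 ± 0.03 and -0.18 ± 0.19, and RPA3, of the single-strand binding complex, at 0.28 ± 0.13. Among 7 polymerase and primase genes the median was 0.017, with a range from -0.094 to 0.078 without 1 array. PolE1, the catalytic subunit of polymerase epsilon, had -0.38 ± 0.21, while PolE2, of the same enzyme, had 0.13 ± 0.11. PolA2 and PolA1, of polymerase alpha, had -0.18 ± 0.04 and -0.10 ± 0.04. Among 6 genes of the lagging strand, topoisomerases and nucleotide supply the median was 0.037 (-0.039 to 0.086 without 1 array), with Top1 at -0.28 ± 0.07 and the DNA ligase gene DNAlig1 at -0.11 ± 0.11 on one side, and dUTPase at 0.26 ± 0.10 and RnrL, of ribonucleotide reductase, at 0.16 ± 0.05 on the other.

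S-phase regulators (8 measured) had a median of 0.027, and -0.033 without the ASF-Cy3 array of replicate 1. The gene ago, whose product marks cyclin E for destruction, had the most negative turned mean of the replication genes, -0.60 ± 0.26, but its deposited values of -1.326 and 0.216 on the ASF-Cy5 arrays, and 0.239 and 1.034 on the ASF-Cy3 arrays, did not keep 1 sign after turning. E2f1, the activator of S-phase genes, had 0.18 ± 0.06, E2f2, a repressor of the same family, 0.072 ± 0.014, and their partner Dp -0.0565 ± 0.0403 (SD, n = 2).

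Chromatin assembly and cohesion genes (8 measured) had a median of 0.0088, and -0.031 and -0.043 without the ASF-Cy5 arrays of replicates 1 and 2. SMC3, a cohesin subunit, had deposited values of -0.353 and -0.544 on the ASF-Cy5 arrays, and 0.650 and 0.653 on the ASF-Cy3 arrays. Its turned mean was -0.55 ± 0.07 (SD, n = 2), with adjusted p = 0.0521 by limma. SMC1, its partner in cohesin, had -0.25 ± 0.10, and eco, which acetylates cohesin, -0.30 ± 0.06. A subunit gene of chromatin assembly factor 1, the histone chaperone that follows the fork, lay on the positive side at 0.32 ± 0.11.

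**Figure D4:**
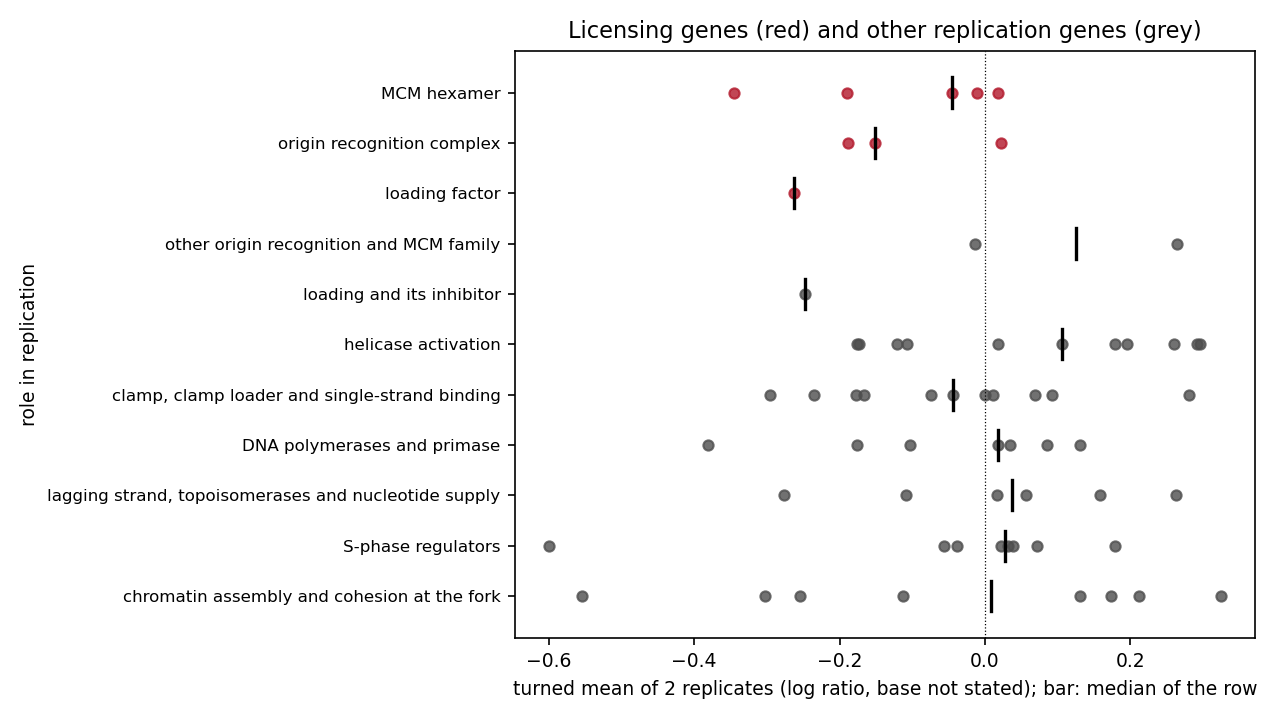
Turned mean of 2 replicates (horizontal axis, log ratio with the base not stated) of each licensing gene (red) and each other replication gene (grey), 1 point per gene, by role (vertical axis), with a bar at the median of each row. The licensing genes lie between -0.35 and 0.022, and the other rows with over 1 gene have points on both sides of 0, from ago at -0.60 to 0.32 for a chromatin assembly gene.

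Markers of tissues in the front end of the larva were read on the same scale, as ratios and not as levels. Of all 10353 genes, 5144 had negative turned means. So did 4 of 4 measured fat body markers (median -0.16) and 4 of 5 muscle markers (-0.18), on the side of Mcm2 and dup. The fat body count was 3 of 4 without the ASF-Cy5 array of replicate 1 or the ASF-Cy3 array of replicate 2. Positive turned means were found for 5 of 7 glial markers (median 0.28), 6 of 7 neuroblast and optic lobe markers (0.11) and 8 of 12 eye disc and photoreceptor markers (0.054). The eye median was 0.012 without the ASF-Cy5 array of replicate 2. The eye marker furthest from 0 was sev, at -0.46 ± 0.15 (SD, n = 2) and negative on all 4 turned arrays, the side of Mcm2 and dup. Salivary gland markers (5 of 11 positive, median -0.0085, and -0.11 to 0.0902 without 1 array) and haemocyte markers (4 of 8 positive, median 0.10) were mixed. Without turning, the medians of these 7 lists lay between -0.11 and 0.048. The lowest was that of the salivary gland list, with 9 of 11 negative, as were 4594 of all 10353 genes. By limma, p was under 0.05 before adjustment for 4 of its genes on the negative side, and for 506 of all genes. The part of these tissues in the values of the licensing genes was not tested.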

How the data were processed

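The authors' deposited values are log ratios of 2-colour arrays, recorded here as a score; base, numerator, normalisation and software were not given in any source used. Cells of -10000, 73 in all, were read as missing. GEO's platform annotation gave gene names (13147 probes with 1 symbol, 99 with several, 2498 with none), of which 12519 were updated through RefSeq's Release 6 gene table by Entrez ID; 5 list symbols were found under another name. Each array was centred on its median, the sign of the ASF-Cy3 arrays was reversed, arrays of a replicate number were averaged, and the mean of 2 replicates was tested against 0 over all 12847 complete probes with limma 3.58.1 (lmFit, eBayes) in R 4.3.3, adjusted by Benjamini-Hochberg, at a threshold of 0.05. An exact sign-flip test on 2 replicates cannot go below p = 0.5 (two-sided), so none was used. Replication and marker lists used 1 value per gene, the mean of its probes. Precision is limited by the small number of arrays.

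The members and lists were chosen with earlier results of these data known. Named were all members, up to 4 genes per replication list by the largest absolute turned mean, SF2, and the 3 genes nearest to Mcm2. The pairing by replicate number comes from the array titles and, for replicate 1, from the series' design text, which names that pair as dye swaps; deviations of same-numbered arrays from the orientation means correlated at -0.339 across probes. Alternatives were the arrays not turned, not centred or scaled, 1 value per gene, other handling of missing values and zeros, fits on the 4 arrays, and leaving out each array. Python 3.11.15 with matplotlib 3.10.9 drew the figures.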

Additional observations from a re-analysis of the deposited data

Results flagged for a closer look

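For 3 licensing genes the turned values, which are centred, had opposite signs on the arrays of the 2 dye orientations. Their deposited sign was the same on all 4 arrays. So was that of Mcm6, but its centred value on the ASF-Cy5 array of replicate 2 was -0.008. The turned mean on the ASF-Cy5 arrays minus that on the ASF-Cy3 arrays was 0.153 for dpa (0.0655 and -0.0875), 0.213 for Mcm5 (0.125 and -0.0885) and -0.5455 for Orc2 (-0.42 and 0.12). In limma's fit on the 4 arrays with a dye term, the turned mean had an unadjusted p of 0.869 for dpa, 0.782 for Mcm5 and 0.0536 for Orc2, and adjusted p-values of 0.937, 0.892 and 0.259. In the same fit the difference between orientations, which tests the mean without turning against 0, had an unadjusted p of 0.278 for dpa, 0.139 for Mcm5 and 0.00512 for Orc2, and adjusted p-values of 0.714, 0.621 and 0.569. None of these passed the threshold.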

How the results depend on the processing

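Of 126 values of the 9 licensing genes under 14 alternatives, 110 kept their direction and their side of the threshold. In several alternatives the mean equalled the main one by construction, so its direction could not change. These were 1 value per gene, a value on at least 1 array of each replicate, the fits on the 4 arrays and the crossed pairing. The mean without turning is another reading of the ratios, so its sign is no check of the turned mean. With the arrays not turned, 7 had the opposite sign: Mcm2 at 0.067, Mcm3 at 0.12, dpa at 0.077, Mcm6 at 0.064, Orc1 at -0.36, Orc5 at 0.018 and dup at 0.051. The median became 0.064 and 1 gene was negative on all arrays. Leaving out 1 array reversed genes near 0, whose ranges were -0.051 to 0.029 for dpa, -0.0415 to 0.0775 for Mcm5, -0.0935 to 0.0025 for Mcm6 and -0.25 to 0.29 for Orc1. Mcm2 ranged only from -0.39 to -0.30 and dup from -0.29 to -0.23. The median of the 9 ranged from -0.13 to -0.0615, and 0 to 1 of them had a positive mean with an unadjusted p under 0.05 in limma (Orc1, 0.29 without the ASF-Cy5 array of replicate 1). Mcm3 had an unadjusted p above 0.05 without that array and without either ASF-Cy3 array, and dup without the ASF-Cy3 array of replicate 1.

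With the replicate block limma called 2 licensing genes, Mcm2 (adjusted p = 0.0328) and dup (0.0357), among 1119 probes called; the estimated correlation within a block was -0.408, which narrows the standard errors. Over the alternatives in which arrays were turned, the adjusted p in limma ran from 0.0328 to 0.402 for Mcm2 and from 0.0357 to 0.402 for dup. Over all features 3 passed with 1 value per gene, 3 with zeros read as missing, and 0 to 184 without 1 array. In the other settings run, 0 licensing genes passed. With replicate numbers crossed, an alternative added after seeing the data, 0 probes passed. The cause of these changes was not tested. With 2 replicates and no signals over background, small differences were not detectable.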
